A study of Mus musculus with 2 samples.

Results

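Transcripts of 32 genes of the unfolded protein response and of secretory folding were followed across the cell classes of inflamed mouse colon. The set was chosen by gene symbol: all 32 symbols were found among the 54456 in the deposited count matrices, and all 32 passed the filter on low counts. The study applied single-cell RNA sequencing to mid-colon of mice aged 7 weeks, kept free of specific pathogens, after 3% dextran sulfate sodium (DSS) for 6 days. DSS, given in the drinking water, damages the lining of the colon. There were 2 libraries of 1 group, repeats 1 and 2, with every cell type of the tissue labelled as included. Colon without DSS was not analysed here, and no value below is a response to DSS. Whether the repeats were separate animals is not stated, so p-values cover only the spread of these samples, and that spread may be technical.

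The endoplasmic reticulum (ER) folds proteins bound for secretion or for membranes. When unfolded proteins accumulate there, sensors such as IRE1 and ATF6 start the unfolded protein response, which raises chaperones, disulfide isomerases and the machinery that returns misfolded proteins to the cytosol for degradation. IRE1 splices the mRNA of XBP1 into the form that makes an active transcription factor. Plasma cells, which secrete antibody, and goblet cells, which secrete mucin, are the classic heavy secretors of the colon. Much of this programme is controlled through short promoter elements, among them the ER stress response element (ERSE) and its shorter relative ERSE-II.

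Promoter sequences of RefSeq (GRCm38.p6, from 250 bases before to 50 bases after the start) were given for 26 of the 32 genes, in 29 promoters. They are not used here for Derl1, Ern2, Creb3l1, Atf6, Hyou1 and Manf. Exact matches on either strand to ERSE, which is CCAAT and CCACG with any 9 bases between them, were found in 9 of the 26 genes, against 0.119% (39) of all 32851 promoters in the table. ERSE-II, which is ATTGG and CCACG with any 1 base between them, matched 2 of the 26 genes and 0.0365% (12) of all promoters. Counted by promoter, as the background is, ERSE matched 9 of the 29 and ERSE-II 2 of the 29. Neither element contains the other, and no gene had both. These genes are textbook targets of the response, so the counts describe the set and were not tested. The sites are shown because ERSE was, of the 4 motifs searched, the one matched in most of these genes. Each is printed 5′ to 3′ on the strand that reads as the element, with the fixed letters of the element in capitals.
Hspa5, chr2:34772025-34772043, plus strand: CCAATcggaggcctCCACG
Hsp90b1, distal, chr10:86705638-86705656, minus strand: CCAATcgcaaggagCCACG
Hsp90b1, proximal, chr10:86705533-86705551, plus strand: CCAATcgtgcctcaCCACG
Creld2, chr15:88819520-88819538, minus strand: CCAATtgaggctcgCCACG
Dnajc3, chr14:118937827-118937845, plus strand: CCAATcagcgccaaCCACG
Pdia6, chr12:17266491-17266509, plus strand: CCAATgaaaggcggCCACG
Calr, chr8:84847075-84847093, plus strand: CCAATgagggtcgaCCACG
Canx, chr11:50325800-50325818, minus strand: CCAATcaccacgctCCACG
Syvn1, chr19:6046532-6046550, plus strand: CCAATcggcggtagCCACG
Derl3, chr10:75893242-75893260, minus strand: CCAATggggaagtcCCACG
Herpud1 (ERSE-II), chr8:94386377-94386387, plus strand: ATTGGgCCACG
Dnajb11 (ERSE-II), chr16:22857852-22857862, plus strand: ATTGGcCCACG

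Hsp90b1 alone among these had 2 sites, and the site of Dnajb11 alone lay after the RefSeq start. Derl3 and Creld2 are the genes with a site whose plasma cell level stood furthest above the next class, and the 200 bases before their starts are shown whole, on the plus strand, which is the strand of both genes. There the element reads as its reverse complement, with its fixed letters in capitals.
Derl3, chr10:75893198-75893397: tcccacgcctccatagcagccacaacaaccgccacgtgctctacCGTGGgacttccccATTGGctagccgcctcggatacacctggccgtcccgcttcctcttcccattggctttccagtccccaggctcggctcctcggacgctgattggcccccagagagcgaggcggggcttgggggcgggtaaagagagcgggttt
Creld2, chr15:88819446-88819645: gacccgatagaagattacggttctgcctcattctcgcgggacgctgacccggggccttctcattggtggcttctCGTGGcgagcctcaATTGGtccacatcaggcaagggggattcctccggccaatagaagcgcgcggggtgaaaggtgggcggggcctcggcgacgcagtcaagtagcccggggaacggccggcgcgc
An XBP1-type element (UPRE), TGACGTGG, matched none of the 26 genes and 0.676% (222) of all promoters. A C/EBP-ATF element, TTGCATCA, matched Herpud1 alone of the 26 (1 of the 29 promoters) and 0.895% (294) of all promoters. A match is a description of letters in this window and not of factor binding.

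**Figure D1:**
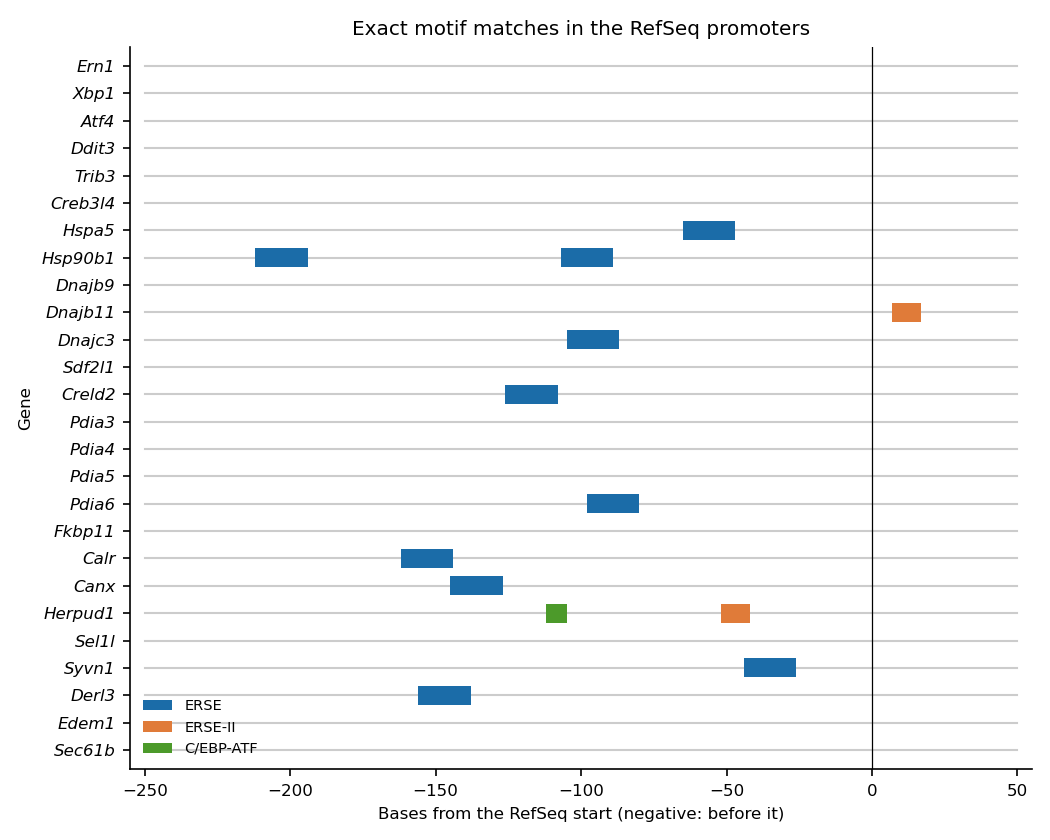
Exact motif matches in the RefSeq promoters of the 26 genes with a promoter in the table; the horizontal axis is the distance in bases from the RefSeq start and each coloured bar is 1 match on either strand. ERSE matches (9 genes) lie before the start, the ERSE-II match of Dnajb11 lies after it, and 15 genes show no bar.

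The matrices held 76622643 UMIs (unique molecular identifiers, each standing for 1 captured mRNA molecule) in library 1 and 94204110 in library 2. After filtering, 5373 and 8388 cells remained, with medians of 7925 and 6452 UMIs. The libraries had in common 18 barcodes, 11 of them among the kept cells. Classes were named from marker genes, and each name below means cells like that type by those markers. The compared classes were plasma cells (64 cells in library 1 and 100 in library 2), goblet cells (138 and 112), colonocytes (1315 and 797), fibroblasts (38 and 90), mononuclear phagocytes (725 and 2499) and neutrophils (434 and 928). The last pair of classes is myeloid by its markers. Dendritic cells (118 and 192) and mast cells (34 and 41) were in the fit but not among the compared classes. Each class carried its own markers. The 8 plasma cell markers summed to 38310 and 37970 CPM (UMIs scaled to a common total per class and library) in plasma cells. In the other 5 classes they summed to at most 488.5. Jchain alone gave 37020 and 36400 CPM of the plasma cell sum. Tnfrsf17, Irf4, Eaf2, Slamf7 and Pou2af1 were also highest in plasma cells. Sdc1 (107.2 and 121.6) was level with colonocytes (108.4 and 122.0), and Prdm1 (131.9 and 171.5) lay below phagocytes (239.8 and 198.0). The 9 goblet markers summed to 32400 and 32940 CPM in goblet cells. The UMIs of each class were added up within each library and fitted with edgeR, and a gene was called when its Benjamini-Hochberg adjusted p over all 15311 genes was under 0.05. Levels of single genes below are TMM-normalised CPM unless another scale is named.

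The 32 genes together took the largest share of UMIs in plasma cells, at 1.503% in library 1 and 1.90% in library 2. Goblet cells followed with 1.05% and 1.18%, fibroblasts with 0.688% and 0.675%, and phagocytes with 0.636% and 0.634%. Colonocytes gave 0.285% and 0.362%, B cells 0.356% and 0.289%, and neutrophils 0.122% and 0.139%. Plasma and goblet cells stood above the other classes in both libraries, and neutrophils stood below all of them. Immunoglobulin transcripts made up 41.7% and 36.7% of plasma cell UMIs. Of the remaining UMIs, the 32 genes took 2.58% and 3.00% in plasma cells.

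Counted per cell, the order of the secretory classes was the other way round. Goblet cells held a mean of 486.5 and 458.5 UMIs of the 32 genes per cell, and plasma cells held 276.0 and 262.1. Goblet cells were also the deeper cells, with medians of 38964.5 and 34787.5 UMIs against 18179 and 13574 in plasma cells. Cell size, RNA content and capture cannot be told apart in these counts. On the per-cell scale 7 of the 32 genes were highest in plasma cells in both libraries (Xbp1, Hsp90b1, Creld2, Pdia4, Sel1l, Derl3 and Edem1), beside 3.08% of all genes. On that scale 23 of the 32 were highest in goblet cells, where 57.7% of all genes were highest. On plain CPM, plasma cells were highest for 19 genes (and 4.94% of all genes) and goblet cells for 7 (and 21%), and the highest class differed between libraries for 6, Hspa5 and Hyou1 among them. On TMM-normalised CPM, plasma cells were highest for 24 genes (and 11.4% of all genes) and goblet cells for 5 (and 7.18%).

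**Figure D2:**
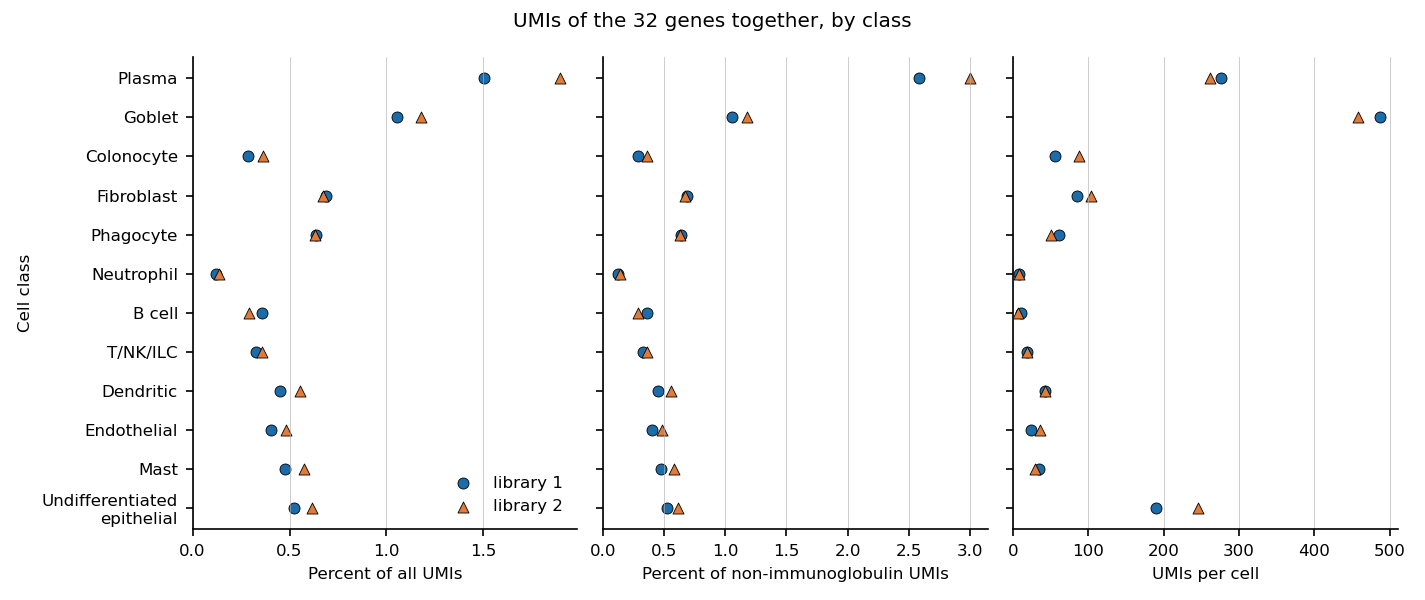
UMIs of the 32 genes together in each class, as a percent of all UMIs (left), as a percent of UMIs without immunoglobulin genes (middle) and as mean UMIs per cell (right); circles are library 1 and triangles library 2. Plasma cells are highest on both percent scales and goblet cells are highest per cell, at 486.5 and 458.5 UMIs.

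In the plasma cells, 25 of the 32 genes were higher than the mean of the other 5 classes and 2 were lower, beside 20.8% of all genes higher and 23.8% lower. The median log2 difference of the 32 was 1.99, against -0.29 over all genes tested. All 9 luminal chaperones and all 6 degradation genes were higher, as were 5 of the 7 isomerases and lectins, 4 of the 9 sensors and factors, and the translocon subunit Sec61b. Scaling by library totals in place of TMM shifted the median of all genes in this contrast by -0.31 on the log2 scale, and gave 23 higher and 3 lower. Plasma cells also held 2 further signals that move with this class. The 9 markers of undifferentiated epithelial cells, which are stem cell and division genes, summed to 864.3 and 1096 CPM, with 2 of the 9 (Smoc2 and Axin2) at 0 in both libraries, and the 9 B cell markers to 458.5 and 391.5 CPM, also with 2 at 0 (Fcmr and Fcer2a). Without the cells that held a Mki67 or Top2a UMI, genes of dividing cells, 24 genes were higher and 1 was lower.

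**Figure D3:**
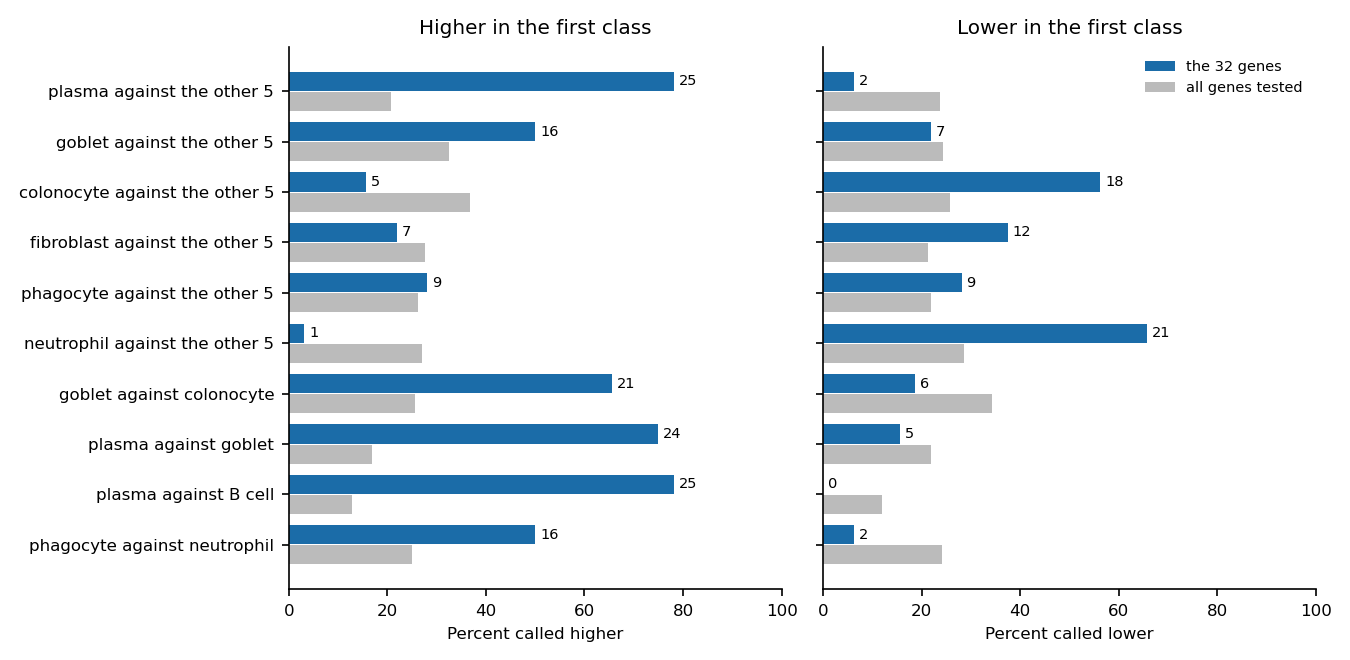
Percent of the 32 genes (blue, with the number of genes) and of all genes tested (grey) called higher (left) and lower (right) in the first class of each contrast, at an edgeR adjusted p under 0.05. Plasma cells show 25 genes higher and neutrophils 21 lower; with library totals as the scale the neutrophil count is 27 and the colonocyte count of lower genes is 22.

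Among the sensors and factors, Xbp1 had the largest lead in plasma cells. Its level was 2613 in library 1 and 2686 in library 2, against 287.8 and 340.3 in neutrophils, the next class, and 153.4 to 289.6 in the remaining classes. The groups did not overlap: the plasma level stood 3.08 ± 0.30 log2 units (SE) above that of neutrophils. The counts sum all Xbp1 transcripts and do not separate the spliced form. Against B cells, the lineage from which plasma cells form, Xbp1 was 5.26 ± 0.36 log2 units higher (edgeR adjusted p = 1.16e-11), with 96.3 and 47.9 in B cells.

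Ern1, the IRE1 gene of most tissues, was at 58.8 and 60.3 in plasma cells, and the next class, phagocytes, was at 26.85 and 26.1. The plasma lead was 1.17 ± 0.27 log2 units with an adjusted p of 0.000705, and 0.0587 with library totals. Atf6, the sensor that is cut in the Golgi to release a factor, was at 205.6 and 216.9 in plasma cells and at 88.7 and 87.6 in phagocytes, a lead of 1.26 ± 0.18 log2 units.
Atf4, the factor made when translation is held back under stress, was higher in plasma cells than in the mean of the others by 0.59 ± 0.14 log2 units (adjusted p = 0.00116). With library totals that difference was 0.274 and did not pass (edgeR adjusted p = 0.0962). Atf4 in plasma cells, at 207.0 and 214.8, was followed by neutrophils, at 178.5 and 174.9, and that lead of 0.26 ± 0.18 did not pass the test (adjusted p = 0.271). On plain CPM Atf4 was highest in goblet cells in both libraries.

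Ern2, Creb3l1 and Creb3l4 went the other way in plasma cells. Ern2 is the IRE1 gene of mucosal epithelia, and Creb3l1 and Creb3l4 encode membrane-bound factors that are cut free in the manner of ATF6. Plasma cells held 0 and 1 UMI of Ern2, 0 and 1 UMI of Creb3l4, and 1 and 4 UMIs of Creb3l1 in all. A count of 0 in library 1 allows up to 2.55 CPM, for counting error only. Of these, Creb3l1 was called lower than the mean of the other classes, with an adjusted p of 1.54e-06. Ddit3 and Trib3, a pair of genes tied to death under lasting stress, did not pass in plasma cells (log2 differences of 0.32 ± 0.24 and 1.15 ± 1.41). Trib3 was near the floor throughout, at no more than 2.545 in any of the 6 classes.

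The luminal chaperones were all higher in plasma cells, and Hsp90b1 and Creld2 stood furthest above the others. Hsp90b1, the ER member of the HSP90 family, was at 5629 and 7359 in plasma cells, 1003 and 1166 in goblet cells and 134.2 and 159.3 in neutrophils. It alone gave 23.9% and 26.5% of the UMIs of the 32 genes in plasma cells, and its lead over goblet cells was 2.58 ± 0.26 log2 units. Creld2, a calcium-binding ER protein raised by stress, was at 638.3 and 628.4, against 65.0 and 68.7 in goblet cells, a lead of 3.24 ± 0.22. Neither range overlapped that of any other compared class.

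Hspa5, which encodes BiP, the main HSP70 of the ER, showed a smaller lead. It was at 2119 and 2825 in plasma cells and at 1730 and 1556 in phagocytes, and the lead of 0.57 was the least of the 9 chaperones. With library totals that lead was 0.12 and did not pass (adjusted p = 0.60), and on plain CPM phagocytes were above plasma cells in library 1 (1525 against 1350). Manf, an ER-resident protein that binds BiP, was at 1247 and 1699 in plasma cells, with 510.6 and 565.4 in goblet cells. Dnajc3, Dnajb11 and Dnajb9 are J-domain partners of BiP, and Sdf2l1 works beside Dnajb11. Their leads over the next class ran from 1.10 (Dnajb11) to 2.32 (Sdf2l1), and Sdf2l1 was at 560.9 and 516.3 in plasma cells against 103.6 and 111.4 in goblet cells. Hyou1, which helps BiP to exchange its nucleotide, had 118.8 and 189.4 against 73.9 and 72.5 in goblet cells. That lead of 1.08 was 0.19 with library totals and did not pass (adjusted p = 0.46).

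**Figure D4:**
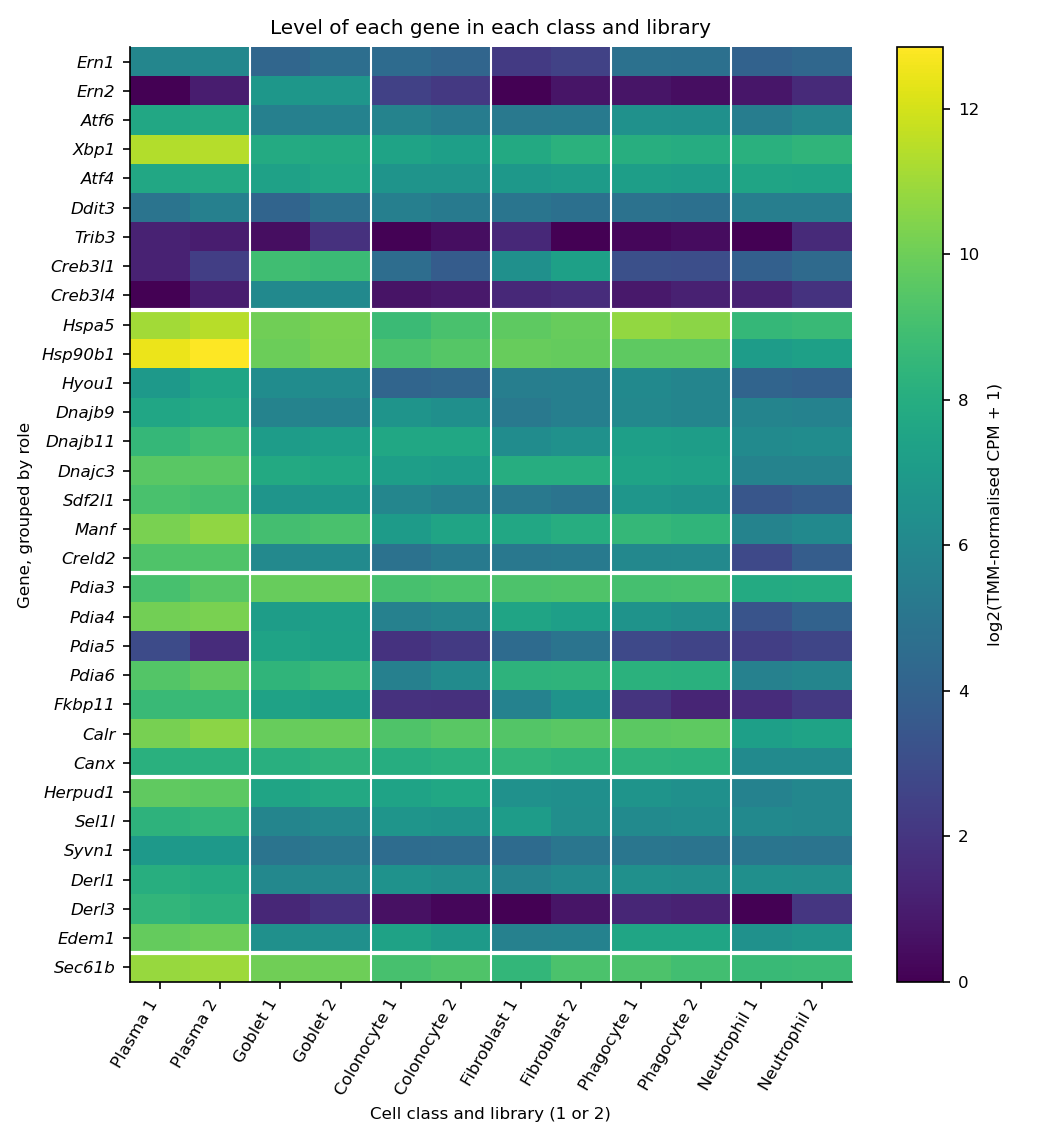
Level of each of the 32 genes in the 6 compared classes and both libraries (colour, log2 of TMM-normalised CPM plus 1), with genes grouped by role: sensors and factors, luminal chaperones, isomerases and lectins, degradation, translocon. The plasma columns are brightest for most genes, for example Hsp90b1 at 5629 and 7359, while Ern2, Creb3l1, Creb3l4 and Pdia5 are bright in goblet cells.

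The isomerases and lectin chaperones were divided between the secretory classes. Pdia4, which has several thioredoxin-like domains, was at 1107 and 1209 in plasma cells, with 180.9 and 148.9 in fibroblasts and 141.8 and 148.7 in goblet cells. Its lead over fibroblasts was 2.84 ± 0.23 log2 units. Pdia5 was at 175.4 and 158.0 in goblet cells, and plasma cells held 5 and 2 UMIs of it, too few for a fold. The plasma call of Pdia5 as lower (adjusted p = 0.00884) was lost when every cell was thinned to 1000 UMIs, where the log2 difference was 0.03. Fkbp11, a prolyl isomerase anchored in the ER membrane, was shared by both: 410.0 and 406.3 in plasma cells, 169.9 and 146.0 in goblet cells, 50.65 and 94.9 in fibroblasts and at most 3.44 in the remaining classes. With library totals the plasma leads of Fkbp11 (0.47, adjusted p = 0.0901) and Pdia6 (0.16, adjusted p = 0.551) did not pass. Pdia3, the isomerase that works with calreticulin and calnexin, was highest in goblet cells (928.2 and 963.7, against 559.5 and 732.1 in plasma cells, a lead of 0.56 ± 0.18).

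Calr and Canx encode the lectin chaperones calreticulin and calnexin. Calr was at 1179 and 1549 in plasma cells and 939.6 and 961.2 in goblet cells, a lead of 0.51 log2 units with an adjusted p of 0.0264. With library totals as the scale that difference was -0.38, so its direction rests on the scaling. Canx was even across plasma cells (288.4 and 286.7), goblet cells, colonocytes, fibroblasts and phagocytes, at 251.8 to 350.9, and lower in neutrophils at 70.6 and 69.5. Its call as higher in plasma cells than in the mean of the others (0.36 ± 0.13) turned to -0.26 with thinned cells and to -0.07 without dividing plasma cells.

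All 6 genes of ER-associated degradation were higher in plasma cells. Derl3, a derlin that helps to pass misfolded proteins out of the ER, had the largest lead of the 32 genes. Its level was 344.5 and 308.9 there, against 1.71 and 2.73 in goblet cells, no more than 3.055 in the other compared classes and 12.3 and 0 in B cells. Free RNA in droplets gives UMIs to cells that do not express a gene, so shares of cells are set beside classes that should lack it. Derl3 was seen in 85.9% and 76.0% of plasma cells, in 0.608% and 0.251% of colonocytes (median depth 15482 and 18429 UMIs) and in 7.25% and 10.7% of the deeper goblet cells. After thinning to 1000 UMIs per cell the plasma shares were 29.7% and 19.2%, and no goblet cell or colonocyte kept a Derl3 UMI. Goblet Derl3 was at 2.04 and 3.45 CPM, too low to expect a UMI among the thinned goblet cells. Thinning therefore cannot decide whether goblet cells express Derl3, and this was not tested. The plasma lead over that low goblet level was 7.23 ± 0.39 log2 units. Its relative Derl1 was broad, at 265.7 and 235.9 in plasma cells and between 52.5 and 91.25 elsewhere among the compared classes.

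Edem1, which recognises trimmed sugars on misfolded proteins, was at 889.4 and 986.0 in plasma cells and 185.5 and 183.6 in phagocytes, a lead of 2.35 ± 0.20. Herpud1, a scaffold of the HRD1 ubiquitin ligase complex, was at 835.9 and 786.1, against 180.9 and 214.5 in goblet cells. Sel1l and Syvn1 encode the adaptor and the ligase of that complex. Sel1l was at 311.1 and 347.0 in plasma cells and Syvn1 at 120.2 and 118.5, with leads of 1.69 and 1.91. Sec61b, a subunit of the channel through which new proteins enter the ER, was at 1858 and 2001 against 1080 and 1036 in goblet cells. Its lead of 0.86 was -0.03 with library totals.

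Held against B cells, 25 of the 32 genes were higher in plasma cells and 0 were lower, beside 12.9% and 12% of all genes (median 3.08, against -0.04 over all genes). With library totals the counts were 24 and 2, and the median of all genes moved by -0.90. At an adjusted p over all genes, Pdia3 and Canx were higher in this comparison too, by 1.996 ± 0.20 and 1.33 ± 0.19 log2 units. The genes that did not pass were Atf4, Ddit3, Trib3, Ern2, Creb3l1, Creb3l4 and Pdia5. Atf4 differed by 0.45 ± 0.20 (adjusted p = 0.10) and turned to -0.465 with library totals.

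Within the plasma cells, cells with and without a Mki67 or Top2a UMI were compared as values only. The former were 31 of 64 cells in library 1 and 55 of 100 in library 2. Immunoglobulin UMIs were 28.7% and 29.1% of their UMIs, and 55.7% and 49.0% in cells without. The share of the 32 genes among the other UMIs was close: 2.48% and 3.03% with, 2.75% and 2.91% without. Single genes moved apart. Herpud1 was at 731.2 and 632.2 CPM of non-immunoglobulin UMIs in cells with a division UMI and at 1228 and 1339 in those without, and Derl3 was at 316.0 and 282.3 with and 481.0 and 450.2 without. Canx went the other way, at 392.1 and 343.3 with and 182.9 and 234.4 without, as did Fkbp11 (525.9 and 477.0 with, 314.0 and 353.4 without) and Calr (1419 and 1786 with, 1065 and 1421 without). Xbp1 was lower in cells with a division UMI in library 1 (2304 against 3808) and nearly level in library 2 (2928 against 2846).

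Across single plasma cells, Spearman's rho between the share of the 32 genes among non-immunoglobulin UMIs and the immunoglobulin share was 0.17 over the 64 cells of library 1 and -0.07 over the 100 cells of library 2. For Xbp1 against the other 31 genes the values were -0.11 and -0.01. The cells of a library share its preparation and differ in depth, and these values are descriptions without a test.

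Goblet cells shared part of their higher genes with plasma cells, among them Pdia4, Pdia6, Fkbp11, Calr and Herpud1. Canx was called in both too, but its plasma difference was 0.041 with library totals (edgeR adjusted p = 0.896). Against the mean of the other 5 classes, 16 of the 32 genes were higher and 7 lower, beside 32.5% and 24.3% of all genes (median 0.37, against 0.04). All 7 isomerases and lectins were higher. Of the 6 degradation genes 1 was higher (Herpud1) and 3 lower, of the 9 chaperones 4 were higher and 1 lower, and of the 9 sensors and factors 3 were higher and 3 lower. This split depends on the scaling: with library totals, which moved the median of all genes by 0.76, 24 genes were higher and 0 lower. Of the 7 lower genes, Atf6, Ddit3, Dnajb9 and Derl1 turned to positive values on that scale, by 0.28, 0.10, 0.20 and 0.12 log2 units. Xbp1 (-0.02), Sel1l (-0.10) and Edem1 (-0.19) stayed below 0 there but no longer passed.

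Ern2, Creb3l1, Creb3l4, Pdia3 and Pdia5 were highest in goblet cells in both libraries on TMM-normalised CPM, plain CPM, CPM without immunoglobulin genes and UMIs per cell. Ern2 was at 111.4 and 107.3 in goblet cells and at 4.66 and 3.37 in colonocytes, a lead of 4.75 ± 0.22 log2 units. It was seen in 94.9% and 92.9% of goblet cells, and in 4.335% and 4.015% of colonocytes. In phagocytes, which should lack it, the share was 0.552% and 0.280% at median depths of 9669 and 7929 UMIs. After thinning, the goblet shares were 16.2% and 15.3% and the colonocyte shares 0.152% and 0.126%, too few to set apart from free RNA. Creb3l4 was at 68.5 and 67.6 in goblet cells and at no more than 2.67 elsewhere among the compared classes. Creb3l1 was at 475.5 and 436.3, with 85.0 and 155.0 in fibroblasts, a lead of 1.85 log2 units. Pdia5 led fibroblasts, at 21.7 and 30.05, by 2.63. No other compared class reached the goblet range of Ern2, Creb3l1, Creb3l4 or Pdia5 in either library.

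The chaperones of goblet cells lay nearer to those of other classes. Hspa5 was at 1062 and 1231 and Manf at 510.6 and 565.4, higher than the mean of the others by 0.30 ± 0.12 and 1.07 ± 0.13 log2 units. Hsp90b1 (0.35 ± 0.18), Creld2, Dnajc3 and Dnajb11 did not pass in goblet cells. Xbp1 was lower by 0.78 ± 0.23 on this scale, at 229.8 and 223.3, while single goblet cells held 12.7 and 11.0 Xbp1 UMIs on average against 30.6 and 25.4 in plasma cells. Edem1 was at 85.6 and 84.9, lower than the mean of the others by 0.95 ± 0.16. With library totals neither the Xbp1 nor the Edem1 difference passed.

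**Figure D5:**
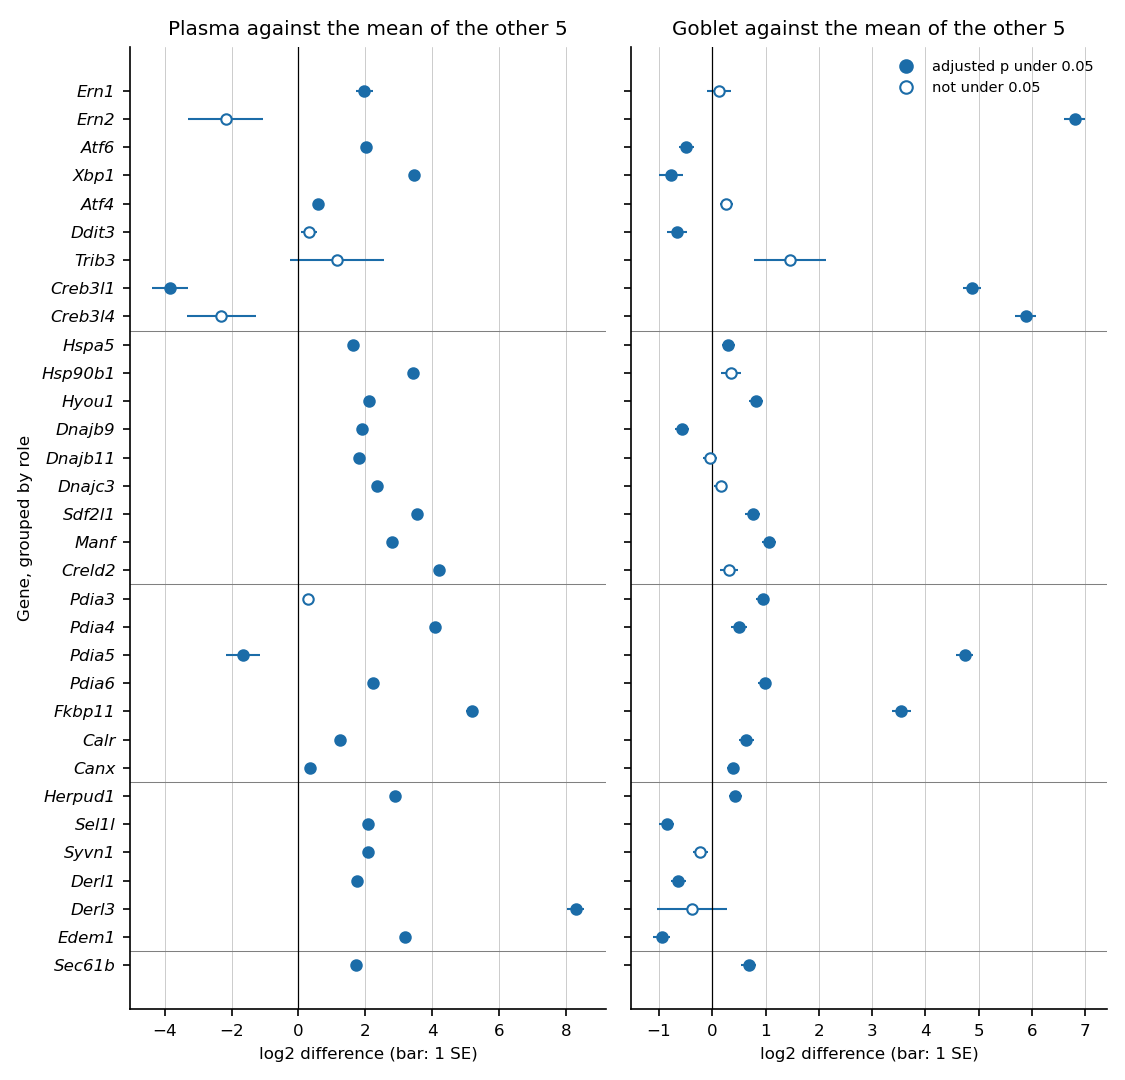
Log2 difference of each gene between plasma cells (left) or goblet cells (right) and the mean of the other 5 classes; bars are 1 SE, filled points have an edgeR adjusted p under 0.05, and the horizontal scales differ. In goblet cells Ern2, Creb3l4, Creb3l1 and Pdia5 lie furthest to the right; with library totals the goblet values of Atf6, Ddit3, Dnajb9, Dnajb11, Derl1 and Syvn1 turn positive.

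Against their epithelial neighbours, the colonocytes, goblet cells were higher in 21 genes and lower in 6, beside 25.6% and 34.2% of all genes (median 0.79, against -0.19). With library totals the counts were 28 and 0, and the median of all genes moved by 0.93. Pdia6 was at 334.9 and 397.2 in goblet cells and 46.5 and 71.2 in colonocytes, a difference of 2.65 ± 0.19 log2 units. Hyou1 (1.995 ± 0.18), Manf (1.79 ± 0.18), Pdia4 (1.44 ± 0.20) and Hspa5 (1.21 ± 0.17) were also higher. The 6 lower genes were Ddit3, Derl1, Dnajb11, Dnajb9, Edem1 and Sel1l. Of these Ddit3 stayed below 0 with library totals, and Dnajb11, Dnajb9, Derl1, Edem1 and Sel1l turned to between 0.12 and 0.50.

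The direct comparison of plasma with goblet cells gave 24 genes higher in plasma cells and 5 higher in goblet cells, beside 16.9% and 22% of all genes (median 1.49, against -0.09). With library totals the counts were 17 and 7, the median of all genes having moved by -0.89. The 5 goblet genes were Ern2, Creb3l1, Creb3l4, Pdia3 and Pdia5. With TMM scaling Atf4, Canx and Trib3 did not pass in either direction. With library totals Atf4 (-0.624, edgeR adjusted p = 0.00229) and Canx (-0.919, adjusted p = 6.35e-05) were called higher in goblet cells. Calr, Ddit3, Sec61b and Atf4 changed sign with library totals (-0.38, -0.07, -0.03 and -0.62).

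Asked which of the 6 classes was highest for each gene, the test named a class for 28 of the 32, beside 47.6% of all genes. Plasma cells were named for 23 genes, beside 5.43% of all genes, and goblet cells for 5, beside 3.24%. No gene of the set was named for colonocytes, fibroblasts, phagocytes or neutrophils, where 14.5%, 10.2%, 3.97% and 10.3% of all genes were. The genes left without a class were Atf4, Canx, Ddit3 and Trib3. With library totals the plasma leads of Ern1, Hspa5, Hyou1, Pdia6 and Fkbp11 did not pass. Those of Calr and Sec61b turned to -0.38 and -0.03, while the leads of the goblet genes still passed. Among the 19 plasma genes with a promoter in the table, the 10 with an ERSE or ERSE-II match had a median log2 plasma difference of 2.30, and the 9 without, among them Xbp1, Pdia4, Fkbp11 and Edem1, had 3.20. None of the 3 goblet genes with a promoter (Creb3l4, Pdia3 and Pdia5) held a match.

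Fibroblasts, the makers of collagen, were higher in 7 genes and lower in 12, beside 27.6% and 21.4% of all genes (median -0.36, against -0.02). The 7 were Canx, Creb3l1, Dnajc3, Fkbp11, Pdia4, Pdia5 and Pdia6, so 5 of the 7 isomerases and lectins were among them. Creb3l1 differed from the mean of the others by 2.655 ± 0.24 log2 units, Fkbp11 by 2.32 ± 0.25 and Pdia6, at 320.2 and 329.2, by 0.77 ± 0.14. Edem1, Herpud1 and Derl1 were lower, Edem1 at 48.8 and 50.5. With library totals, which moved the median of all genes by 0.54, 13 genes were higher and 6 lower, and Manf and Xbp1 turned from lower to 0.18 and 0.003. With thinned cells the counts were 2 and 5. The fibroblast class was small and its edges depended on the clustering: it held 85 and 159 cells at a finer resolution. Ern1, at 3.62 and 4.78 and lower by 2.52 ± 0.45 here, differed by 0.265 in that clustering. A cluster led by Mmp13, Tagln, Myh11 and Acta2 (69 and 85 cells) was left unnamed and outside this class. By its markers it lay nearest to smooth muscle and pericytes, with fibroblasts second. Ern1 was at 52.56 and 65.19 plain CPM there, against 4.28 and 5.04 in the fibroblast class. The 32 genes took 0.471% and 0.443% of that cluster's UMIs. The fibroblast values describe the named class alone. Markers of other cells stood beside these values in fibroblasts. The 9 neutrophil markers summed to 954.9 and 1291 CPM and the 8 of smooth muscle and pericytes to 725.8 and 805.5. The 10 of T and NK cells summed to 295.5 and 131.0, of which Thy1 gave 51.39 and 87.82. No marker of these lists was at 0 in both libraries, and Il7r was at 0 in library 1. The part of these markers in the result was not tested.

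Colonocytes, the absorptive cells, were higher in 5 genes and lower in 18, beside 36.7% and 25.7% of all genes (median -0.58, against 0.05). The 5 were Ddit3, Dnajb11, Dnajb9, Ern2 and Herpud1. With thinned cells Ern2 turned to -0.293 and Herpud1 to -0.014, and with library totals Herpud1 was -0.035. Dnajb9, the J-protein that represses IRE1, was at 98.5 and 83.5 in colonocytes, second to plasma cells at 196.3 and 227.5. With library totals 0 were higher and 22 lower, and DESeq2 gave 1 higher and 21 lower. Median mitochondrial shares of UMIs were 8.10% and 5.24% in colonocytes and 1.14% to 3.63% in the other 5 classes, and their part in the result was not tested. Pdia6 differed from the mean of the others by -2.20 ± 0.16, Hyou1 by -1.57 ± 0.15 and Xbp1 by -1.34 ± 0.24 log2 units. Creb3l1 was called lower by 0.76, and gave -1.425 without replicate 1 and 0.003 without replicate 2. Across 10 clusters of colonocytes the share of the 32 genes ran from 0.2115% to 0.402% of UMIs in library 1 and from 0.194% to 0.505% in library 2, and 5 of the clusters had under 20 cells in a library.

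Phagocytes were higher in 9 genes and lower in 9, beside 26.2% and 22% of all genes, so the counts lay near the background (median -0.19, against -0.035). Scaled by library totals the counts were 11 and 5. Hspa5, at 1730 and 1556, was second to plasma cells and higher than the mean of the others by 0.94 ± 0.12 log2 units, and it gave 24.0% and 22.8% of the UMIs of the 32 genes in phagocytes. Fkbp11 was lower by 4.10 ± 0.34, at 2.78 and 1.515. The neutrophil markers summed to 7615 and 5366 CPM in phagocytes, with none of the 9 at 0, and their part in the result was not tested.

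The phagocyte clusters differed in the set. In the cluster led by Chil3, Cxcl3, Fn1 and Vcan (223 and 532 cells) the 32 genes took 0.801% and 0.864% of UMIs. Hspa5 was at 2453 and 2742 CPM there, above the 1350 and 1932 plain CPM of the plasma cell class. That order depends on the scale, since immunoglobulin made up 41.7% and 36.7% of plasma cell UMIs. As CPM of non-immunoglobulin UMIs, Hspa5 was at 2007 and 2965 in plasma cells with a division UMI. In plasma cells without a division UMI it was at 2850 and 3252. The cluster's plain CPM lay between these plasma values in library 1 and below them in library 2. In the cluster led by Ccl8, C1qa, Ms4a7 and C1qc (130 and 184 cells) the share was 0.517% and 0.516%, with Hspa5 at 920.0 and 895.5 CPM. The cluster led by Ly6i and Cxcl9 gave 0.599% and 0.651%, and that led by Ccr2 and Apoe 0.463% and 0.469%. Manf ran in the same order at its ends, 534.4 and 515.5 CPM in the first and 180.1 and 176.2 in the last. Without the first cluster, which also lay nearest to neutrophils by its markers, 5 genes were higher in phagocytes and 12 lower, Hspa5 differed by 0.41 (adjusted p = 0.00367) and Manf turned to -0.15.

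Neutrophils were higher in 1 gene, Ddit3, and lower in 21, beside 27% and 28.6% of all genes (median -1.08, against -0.25). All 9 chaperones, all 7 isomerases and lectins and Sec61b were lower, with 3 of the 6 degradation genes and, of the sensors and factors, Atf6. Pdia4 was at 8.99 and 15.3, lower by 3.71 ± 0.25 log2 units, and Hsp90b1 was lower by 3.12 ± 0.25. Xbp1, at 287.8 and 340.3, differed from the mean of the others by -0.22 ± 0.22 and was not called on this scale. With library totals it was lower by 1.11 (adjusted p = 0.000101). Ddit3, at 43.6 and 43.5, was higher by 0.51 ± 0.19 (adjusted p = 0.0279) and turned to -0.38 with library totals, where 0 genes were higher and 27 lower and the median of all genes moved by -0.88.

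Phagocytes were higher than neutrophils in 16 genes and lower in 2, beside 25.1% and 24.1% of all genes (median 0.67, against 0.05). The 2 lower genes were Creb3l1 and Ddit3. Sdf2l1 differed by 3.17 ± 0.25 log2 units, Pdia4 by 2.80 ± 0.27 and Creld2 by 2.66 ± 0.29. Derl1, Sel1l, Syvn1, Ern1, Atf4 and Xbp1 did not pass. With library totals, which moved the median of all genes by 0.93, 25 genes were higher and 0 lower, and Xbp1, Atf4 and Ddit3 turned to 0.65, 0.62 and 0.23.

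Among genes with at least 20 UMIs in both libraries, the median log2 difference of library 2 from library 1 was 0.11 in plasma cells (27 genes), 0.075 in goblet cells (30 genes) and -0.08 in phagocytes (27 genes). The largest single difference, in either direction, was 0.70 in plasma cells and 0.76 in goblet cells, for Ddit3 in both. It was 0.885 for Creb3l1 in colonocytes, 0.91 for Fkbp11 in fibroblasts and 0.268 for Sec61b in phagocytes. In neutrophils it was 0.505 for Creb3l1, and in B cells 1.008 for Xbp1. Ddit3 lies opposite Mars, and Manf overlaps Rbm15b on the same strand, so their counts may hold reads of those genes.

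Other genes of the secretory pathway were taken from 7 lists of 103 genes, none of them among the 32. Their counts stand beside the same shares of all genes as above, 20.8% higher and 23.8% lower in plasma cells and 32.5% and 24.3% in goblet cells. In plasma cells 18 of 19 genes of translocation and signal peptide cleavage were higher and 0 lower, with Sec11c, a catalytic subunit of signal peptidase, at 2836 and 3279 and higher by 3.93 ± 0.12 log2 units. Of 13 genes of N-glycosylation 9 were higher and 1 lower, of 15 further degradation genes 10 and 0, and of 15 genes of transport to the Golgi 13 and 1, led by the cargo receptor Lman1 (3.76 ± 0.10). Further folding genes gave 12 higher and 4 lower of 17. Mzb1, a plasma cell co-chaperone of Hsp90b1, was at 56.1 and 61.4, and the isomerase Txndc5 was higher by 4.68 ± 0.19. The integrated stress response, the ATF4 branch, was divided at 8 higher and 8 lower of 18. The serine synthesis enzyme Phgdh was higher by 4.89 ± 0.19, while Stc2 and Vldlr had no UMI in plasma cells. Among 6 other ER-bound factors and their proteases 3 were higher, led by Creb3l2 (3.60 ± 0.16), and 1 was lower.

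In goblet cells 12 of the 13 N-glycosylation genes were higher and 0 lower. Uggt1, which sends misfolded glycoproteins back to calnexin and calreticulin, was higher by 1.20 ± 0.12 in goblet cells and lower by 0.64 ± 0.19 in plasma cells. Translocation gave 12 higher and 1 lower of 19, transport to the Golgi 9 and 2 of 15, and further folding 8 and 3 of 17. The last was led by Agr2, an isomerase needed for mucin, at 11020 and 11300 and higher by 6.93 ± 0.14. Further degradation genes gave 4 higher and 7 lower of 15, and Ube2j1, higher by 2.75 ± 0.12 in plasma cells, was lower by 1.05 ± 0.14 in goblet cells. The integrated stress response gave 11 higher and 5 lower of 18, with Stc2 called higher at 64.3 and 57.6 and Cebpb lower by 3.41 ± 0.20. Creb3l2 was lower by 0.57 ± 0.18 in goblet cells, and the other ER-bound factors gave 0 higher and 3 lower of 6.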

How the data were processed

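The deposited matrices hold raw UMI counts per gene and barcode, made by the authors with Cell Ranger: 7.0.0 per the file headers, 8.0.0 per the submitters' processing notes, which name mm10. Per the labels' protocols, capture used a 3′ V3 kit and libraries v2 reagents, and 5000 cells were aimed at. Coordinates of genes come from GENCODE's GRCm38 annotation, which is mm10. The 32 genes, the lists and the tests were chosen with earlier results of these data known.

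Of 6597 and 9611 barcodes, 36 and 9 had under 200 genes, 876 (13.3%) and 484 (5.04%) lay at or above 20% mitochondrial UMIs, and the highest Scrublet scores, 348 and 739, were removed as doublets (0.8% per 1000 barcodes). Cells were clustered with scanpy 1.11.5 (2000 variable genes, 30 components, 15 neighbours, Leiden resolution 1.0) without the 32 genes, the list genes, immunoglobulin, mitochondrial, ribosomal, haemoglobin, Xist and Y-linked genes. Genes that vary with the held-out ones stayed in, so classes are not independent of them. Names came from listed markers, needing 3 detected at 10 CPM, and the scoring rule was set after clusters were seen.

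Counts were summed per library and class (at least 20 cells in each library). The 24 sums of 12 classes were fitted together by the quasi-likelihood method of edgeR 4.0.16 under R 4.3.3, after TMM and filterByExpr and with the library as a block, because classes of a library share a colon sample. It held 15311 genes and 11 residual degrees of freedom. TMM factors were 0.639 and 0.686 in plasma cells, 1.20 and 1.27 in goblet cells, and 0.466 and 0.485 in neutrophils. A highest class was called when the largest of its 5 pairwise p-values passed after adjustment over all genes. The SE of a fold is the one implied by its F statistic. On simulated data for the plasma contrast (13830 genes), 98% of genes raised by 2 log2 units and 62% of those raised by 1 were called, 76% and 22% of those lowered as much, and 0.07% of unchanged genes. Of list genes, up to 2 per list and direction with the largest change among those that passed could be named. No table of proteins was used here. Alternatives were DESeq2 1.42.0, other scalings, filters, clusterings and cell sets, and the fits without each library.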

Additional observations from a re-analysis of the deposited data

How the results depend on the processing

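Of 16 alternatives, 14 gave counts of calls and the fits without 1 library gave fold changes alone, since no residual degrees of freedom remained. Of 322 such counts 290 stayed within 1.5 times the value reported, and of 4906 tested values of single genes 4528 kept their side of the threshold and, where called, their direction, 203 fell below it, 127 passed it and 48 changed sign. Of the 704 fold changes without 1 library, 1 called value changed sign. The counts higher in plasma cells ran from 22 to 26 of 32. Leaving out the library as a replicate block changed no count by over 1.5 times (25 genes higher and 2 lower in plasma cells, 15 and 7 in goblet cells, 22 named for plasma cells). The cause of the changes below was not tested.

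With library totals as the scale, genes lower in goblet cells numbered 0, higher in colonocytes 0, higher and lower in fibroblasts 13 and 6, lower in phagocytes 5, higher in neutrophils 0, lower in goblet cells than colonocytes 0, lower in plasma than B cells 2, and higher and lower in phagocytes than neutrophils 25 and 0. On that scale goblet values became 0.276 (Atf6), 0.101 (Ddit3), 0.196 (Dnajb9), 0.719 (Dnajb11), 0.544 (Syvn1) and 0.124 (Derl1). Against colonocytes they became 0.116 (Dnajb9), 0.476 (Dnajb11), 0.223 (Sel1l), 0.502 (Derl1) and 0.162 (Edem1). Fibroblast values became 0.003 (Xbp1), 0.408 (Hspa5), 0.51 (Hyou1) and 0.176 (Manf). Herpud1 in colonocytes became -0.035, and Atf4 and Ddit3 in neutrophils -0.606 and -0.376. Plasma against goblet values became -0.624 (Atf4), -0.07 (Ddit3), -0.382 (Calr) and -0.031 (Sec61b), the last pair also as leads, and Atf4 against B cells -0.465. Phagocyte against neutrophil values became 0.653 (Xbp1), 0.621 (Atf4) and 0.228 (Ddit3).

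With cells thinned to 1000 UMIs, which leaves fewer counts, genes lower in plasma cells numbered 0, lower in goblet cells 2, higher in colonocytes 2, higher and lower in fibroblasts 2 and 5, lower in phagocytes 5, lower in goblet cells than colonocytes 2, and lower in phagocytes than neutrophils 1. Values became 0.034 (Pdia5) and -0.26 (Canx) in plasma cells, 0.261 (Dnajb9) in goblet cells, -0.293 (Ern2) and -0.014 (Herpud1) in colonocytes, 0.171 (Creld2) in fibroblasts, 0.148 (Atf6) in neutrophils and 0.196 (Dnajb11) in goblet cells against colonocytes. DESeq2 gave 1 gene higher in colonocytes, 2 higher in neutrophils and 4 lower in phagocytes than neutrophils. RLE scaling gave 2 higher in colonocytes and 2 in neutrophils. A fit of the compared classes and B cells gave 2 higher in neutrophils.

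With no doublets removed, 2 genes were higher in colonocytes, 0 in neutrophils and 3 lower in goblet cells than colonocytes, and Ern1 became -0.553 in colonocytes and 0.202 in fibroblasts. With the lists kept in the clustering, Ern1 became -0.486 in goblet cells, -0.589 in colonocytes, 0.385 in fibroblasts and -0.032 in phagocytes, and Derl3 became 5.676 in phagocytes against neutrophils. At Leiden resolution 2.0 Ern1 became -0.595 in colonocytes, 0.265 in fibroblasts and -0.025 in phagocytes. Of the alternatives chosen after seeing the data, phagocytes without the cluster nearest neutrophils gave 5 genes higher in phagocytes, 2 higher in neutrophils and a Manf value of -0.149. Plasma cells without Mki67 or Top2a UMIs gave 1 gene lower in plasma cells, 5 lower in phagocytes, 0 higher in neutrophils and a Canx value of -0.073. Without 1 library, Creb3l1 in colonocytes ran from -1.425 to 0.003. A limit of 10% mitochondrial UMIs (goblet cells fell to 23 and 16) and resolution 0.5 (plasma cells joined phagocyte clusters) gave no fit. Plasma cells and fibroblasts were the thinnest classes, and genes with under 3 UMIs in a sum could not be told from absent.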

Other observations

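The undifferentiated epithelial cells, named by stem and division markers and outside the comparisons above, held intermediate values of the set. The 32 genes took 0.521% of their UMIs in library 1 and 0.616% in library 2, or 189.5 and 245.6 UMIs per cell, between colonocytes and goblet cells on both scales. Ern2, the epithelial IRE1 gene, was at 26.55 and 28.5 TMM-normalised CPM in them, against 111.4 and 107.3 in goblet cells and 4.66 and 3.37 in colonocytes. Creb3l1 was at 157.3 and 146.2, against 475.5 and 436.3 in goblet cells and 22.8 and 12.4 in colonocytes. Ddit3 was at 13.7 and 11.7, below both neighbours in either library. These levels were not tested.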
